A study of Rattus norvegicus with 36 samples.

Results

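Genes of fatty acid binding, uptake and lipid storage were followed in rat liver across 6 dose groups of the brominated flame retardant hexabromocyclododecane (HBCD). They are the fatty acid binding protein genes Fabp5, Fabp1, Fabp2, Fabp4 and Fabp7, the fatty acid uptake receptor gene Cd36 and the lipid droplet coat gene Plin2. Every probe set whose only gene symbol in the platform annotation was one of these names was taken, which gave 7 genes on 8 probe sets, of 14217 gene symbols and 31042 probe sets in all. The genes were chosen by a measured value, the lower Fabp5 level at 641 mg/kg than in vehicle, so the values of that comparison are given as a description, with no p-value for a member. Another probe set is annotated to both Cd36l1 and Cd36 and was not counted as a member.

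The samples were livers of male Sprague Dawley rats aged 7 weeks at the start, which received corn oil alone (vehicle) or HBCD in corn oil. The HBCD dose was 0.06 mg/kg in the lowest group, 0.641 or 6.41 mg/kg in the next, and 64.1 or 641 mg/kg in the top groups. All groups, vehicle included, were gavaged by mouth with 5 ml/kg on 5 consecutive days, and RNA came from the left liver lobe 1 day after the last dose. Each group held 6 arrays, 36 in all, and as the labels do not state whether arrays stand for different animals, p-values cover only array-to-array spread, part of which may be technical. Values are log2 probe set levels, in which a difference of 1 is a doubling of signal, and group values are means ± SD over 6 arrays (n = 6). The lowest and highest values on any array were 1.53 and 14.59, array medians lay between 4.83 and 4.90, Pearson's r between arrays within a group was 0.991 to 0.997, and no array held the values of another. Hepatocyte markers were high, with albumin (Alb) at a mean of 14.52.

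Fatty acid binding proteins are small cytosolic carriers that hold long-chain fatty acids in a barrel-shaped pocket and move them between membranes, enzymes and nuclear receptors. Fabp1 is the abundant liver form and a known target of the fatty acid receptor PPARalpha, whereas Fabp5 was first described in epidermis and is known to deliver ligands to PPARdelta. Cd36 takes up long-chain fatty acids at the cell surface, and Plin2 coats cytosolic lipid droplets, the store in which hepatocytes keep triglyceride.

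The stretch upstream of Fabp1 is shown because Fabp1 was the member that Fabp5 was set against and because it holds letters of the element through which PPARalpha is known to act. It is the 250 bases before the annotated start, on the plus strand of chr4:104749090-104749339 in GRCr8, from RefSeq.
Fabp1: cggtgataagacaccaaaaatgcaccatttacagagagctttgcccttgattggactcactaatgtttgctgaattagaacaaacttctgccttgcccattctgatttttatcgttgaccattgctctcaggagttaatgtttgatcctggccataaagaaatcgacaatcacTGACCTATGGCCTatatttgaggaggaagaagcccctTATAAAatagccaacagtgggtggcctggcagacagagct
The capitals mark a direct repeat with a spacer of 1 base, searched as AGGNCANAGGNCA on both strands and read here on the minus strand at bases -77 to -65 from the start, and a TATA match, searched as TATAAA on both strands, at -40 to -35. The matches do not overlap. Over 33469 RefSeq windows of 300 bases, from 250 before to 50 after a start, 0.415% held the repeat and 14.222% held TATAAA. Windows were on hand for 5 of the 7 genes. Fabp5 had none, so its upstream stretch was not searched and is not compared with that of Fabp1. The other match in the windows on hand was a TATAAA on the minus strand at -175 to -170 of Cd36. The motifs were chosen with this element of Fabp1 known, and a match is a description of letters, not of binding.

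The mean level of Fabp5 was below vehicle at the top 2 doses and close to it at the other doses. At 641 mg/kg its 6 arrays read 9.01, 8.93, 8.72, 9.41, 8.91 and 7.94, against 9.70, 9.31, 10.13, 9.83, 9.66 and 9.50 in vehicle. All 6 lay below the vehicle mean, yet 1 of them, at 9.41, lay above the lowest vehicle array, so the groups overlapped. The mean was 8.82 ± 0.49 at 641 mg/kg against 9.69 ± 0.28 in vehicle, a level 1.82-fold lower. One array, replicate 6 at 7.94, was the lowest of all 36, and leaving out each array in turn moved the log2 difference between -0.98 and -0.69. In whole-liver RNA, fewer cells of a type and less RNA per cell cannot be told apart.

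At 64.1 mg/kg the Fabp5 arrays read 9.35, 9.05, 9.36, 9.18, 9.02 and 9.10, all below the vehicle mean and with a narrow spread. The group mean was 9.18 ± 0.15 against 9.69 ± 0.28 in vehicle, 1.42-fold lower (95% CI 1.13 to 1.79), and the 2 groups overlapped between 9.31 and 9.36. Limma gave an unadjusted p of 0.00344 and an adjusted p of 0.572, so the difference did not pass the test across all probe sets. This comparison uses the same vehicle arrays as the 641 mg/kg comparison that chose the gene. Another comparison, chosen after the data were seen, set 64.1 mg/kg against the 18 arrays of the 3 lower doses, so that its means share no array with those of 641 mg/kg and vehicle. There, Fabp5 averaged 9.18 ± 0.15 (n = 6) against 9.75 ± 0.27 (n = 18), 1.49-fold lower (95% CI 1.23 to 1.79). Limma over all 36 arrays, whose spread includes the 641 mg/kg and vehicle arrays, gave an unadjusted p of 1.26e-04, rank 22 among all probe sets, and an adjusted p of 0.178, again short of the threshold of 0.05. In that fit 11 probe sets, or 0.0354%, were called, all higher, and 1857 had an unadjusted p under 0.05. Fitted on the 24 arrays of these groups alone, the adjusted p of Fabp5 was 0.0336, the last of 9 probe sets called, or 0.029%, of which 8 were higher. That call was lost in 12 of the 24 fits that left out 1 array more, with adjusted p from 0.0197 to 0.207, so it depends on which arrays are fitted.

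The lower doses held Fabp5 near its vehicle level. Its lowest, median and highest arrays were 9.49, 9.93 and 10.27 at 0.06 mg/kg, 9.27, 9.68 and 10.04 at 0.641 mg/kg, and 9.43, 9.65 and 10.17 at 6.41 mg/kg. The folds of vehicle were 1.16, 0.974 and 1.01 in that order of dose, each with a limma adjusted p of at least 0.999. Ordered by mean, 0.06 mg/kg was highest at 9.90, followed by 6.41 mg/kg at 9.70, vehicle at 9.69 and 0.641 mg/kg at 9.65, then 64.1 mg/kg at 9.18 and 641 mg/kg at 8.82. Neighbours among the first 4 differed by less than their SD and the last 2 by less than the SD at 641 mg/kg, while the step from 0.641 to 64.1 mg/kg exceeded the SD of both groups. The slope over the 5 groups from vehicle to 64.1 mg/kg was -0.12 log2 units per dose step, with a limma p of 0.00200 and an adjusted p of 0.768. Those 5 means did not fall step by step with dose, and 64.1 mg/kg held the lowest of them. The slope also uses the vehicle arrays of the comparison that chose Fabp5, and its spread includes the 641 mg/kg arrays.

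**Figure D1:**
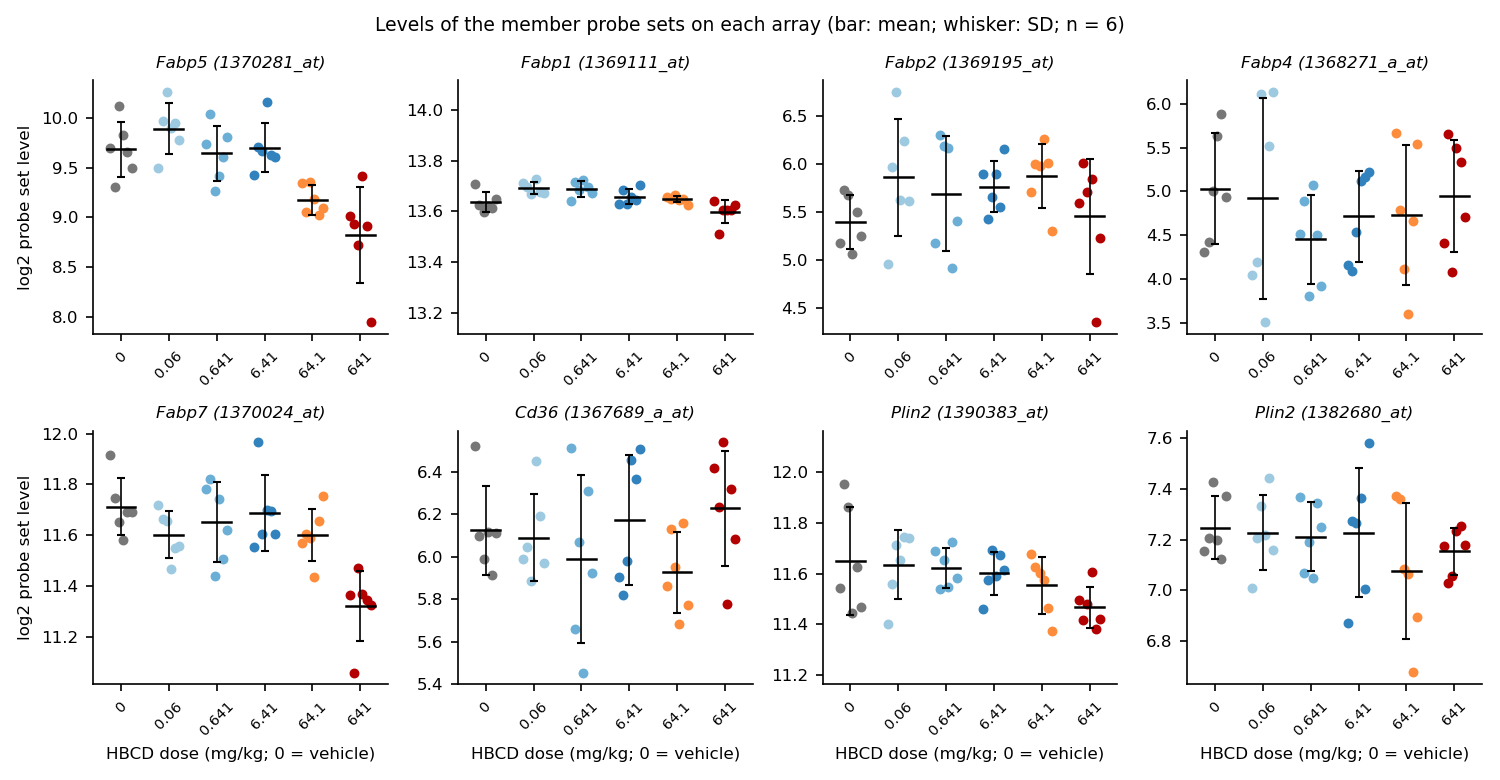
Log2 level of each of the 8 probe sets (y axis, own range per panel) on each of the 36 arrays by HBCD dose in mg/kg (x axis, 0 is vehicle), with a bar for the mean and a whisker for the SD of 6 arrays. Fabp5 sits at 9.18 and 8.82 at the top 2 doses against 9.69 in vehicle, while the group means of Fabp1 lie between 13.60 and 13.69.

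Fabp1, the main liver isoform, varied far less than Fabp5. Its lowest, median and highest arrays at 641 mg/kg were 13.51, 13.61 and 13.64, against 13.60, 13.62 and 13.71 in vehicle. At 64.1 mg/kg they were 13.63, 13.65 and 13.66. The arrays of all groups lay within the span from 13.51 to 13.73, and every pair of a dose and vehicle overlapped. The mean was 13.60 ± 0.05 at 641 mg/kg against 13.64 ± 0.04 in vehicle, a fold of 0.974 of vehicle. At 64.1 mg/kg the fold was 1.01, with a limma adjusted p of 0.989 and a 95% interval of the ratio of vehicle to dose of 0.945 to 1.04. The means were 13.69 ± 0.02 at 0.06 mg/kg and 13.69 ± 0.03 at 0.641 mg/kg, and all 6 arrays of each lay above the vehicle mean. The folds at 0.06, 0.641 and 6.41 mg/kg were 1.04, 1.04 and 1.02, each with a limma adjusted p of at least 0.999. The pooled SD within groups was 0.032, and 0.0644% of probe sets had a smaller one. Fabp1 signal lies near the top of the array range, and whether it was compressed there was not tested.

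Fabp5 was also set against Fabp1 on the same array. The Fabp5 minus Fabp1 difference in log2 level had its lowest, median and highest array at -4.62, -4.50 and -4.30 at 64.1 mg/kg, against -4.32, -3.98 and -3.47 in vehicle, so the groups met at their ends. The mean was -4.47 ± 0.14 at 64.1 mg/kg, against -3.95 ± 0.29 in vehicle, a difference of -0.52, and all 6 arrays lay below the vehicle mean. A two-sided exact permutation test of 6 against 6 arrays gave p = 0.00649, or 0.0260 after Benjamini-Hochberg adjustment over the 4 doses tested, where 0.00216 is the smallest p that the 924 splits allow. That call rested on the full set of arrays: without vehicle replicate 1, 3, 4, 5 or 6, or without 64.1 mg/kg replicate 2, 4, 5 or 6, the adjusted p was 0.0519, and over all alternatives it ran from 0.0173 to 0.125. Since Fabp1 barely moved, this value repeats the Fabp5 difference at that dose, which shares its vehicle arrays with the comparison that chose the gene.

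At the 3 lower doses the same difference departed from vehicle by 0.15 at 0.06 mg/kg (exact permutation p = 0.364), by -0.09 at 0.641 mg/kg (exact permutation p = 0.591) and by -0.0068 at 6.41 mg/kg (exact permutation p = 0.952). At 641 mg/kg it averaged -4.78 ± 0.50 against -3.95 ± 0.29 in vehicle, a description only.

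**Figure D2:**
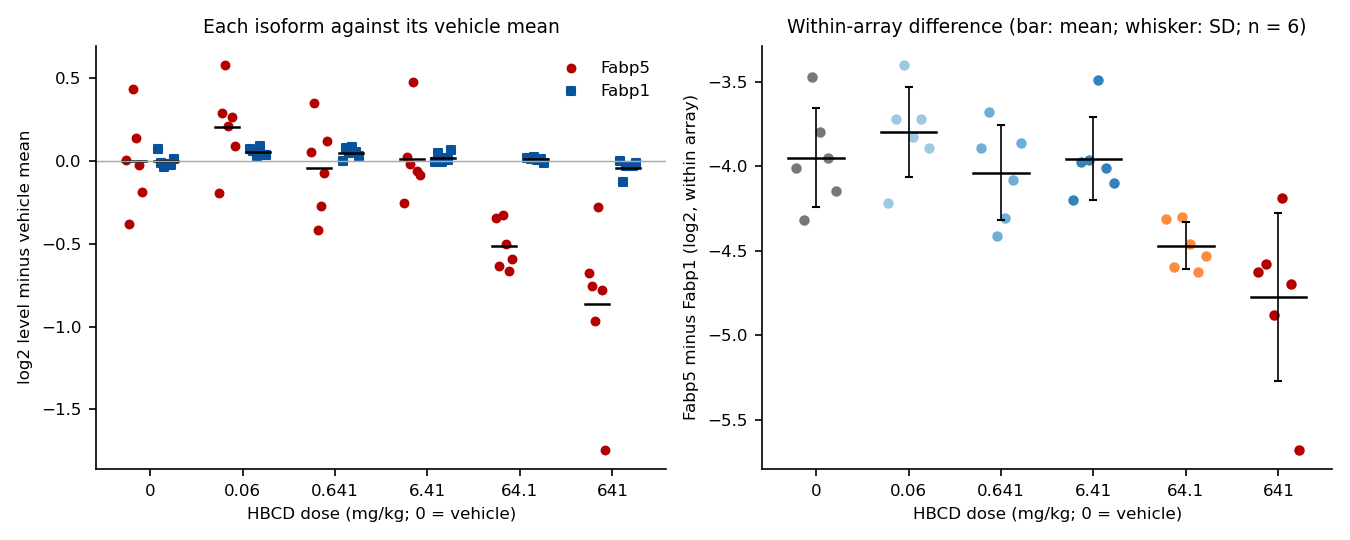
Left, log2 level of Fabp5 (red circles) and Fabp1 (blue squares) minus the gene's own vehicle mean on each array, with bars for group means. Right, Fabp5 minus Fabp1 within each array, with mean and SD of 6 arrays. The x axes give the HBCD dose in mg/kg, and the right panel shows means of -4.47 at 64.1 mg/kg and -3.95 in vehicle.

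Fabp7, named for its place in brain and located in mouse liver in Kupffer cells, was also lower at the top dose. Its arrays read 11.36, 11.06, 11.47, 11.37, 11.34 and 11.32 at 641 mg/kg, against 11.92, 11.74, 11.65, 11.58, 11.69 and 11.69 in vehicle. Every array at 641 mg/kg lay below every vehicle array. The means were 11.32 ± 0.14 at 641 mg/kg and 11.71 ± 0.11 in vehicle, 1.31-fold lower. Over all probe sets, 0.654% were lower at 641 mg/kg with no overlap between the groups. At 64.1 mg/kg Fabp7 averaged 11.60 ± 0.10 against 11.71 ± 0.11 in vehicle, a fold of 0.925 with a limma adjusted p of 0.924, and at the lower doses the folds were 0.926 to 0.982.

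Fabp2, the intestinal form, was dim and variable, with group means between 5.40 and 5.88. Its lowest, median and highest arrays were 5.30, 5.99 and 6.26 at 64.1 mg/kg, against 5.06, 5.37 and 5.73 in vehicle, which overlapped. The fold at 64.1 mg/kg was 1.39, with a limma adjusted p of 0.861, and at 641 mg/kg it was 1.04, a difference whose sign changed when 1 array was left out. The Fabp2 folds at 0.06, 0.641 and 6.41 mg/kg were 1.38, 1.23 and 1.29, each with a limma adjusted p of at least 0.999. Vehicle thus had the lowest group mean of Fabp2, and 64.1 mg/kg did not stand apart from the lower doses. Fabp4, the adipocyte form, which is also found in macrophages and capillary endothelium, was below the median probe set of its own array in 19 of 36 arrays. Its arrays spread widely in every group, from 4.08 to 5.65 at 641 mg/kg, against 4.31 to 5.89 in vehicle, and from 3.51 to 6.14 at 0.06 mg/kg. The fold of vehicle was 0.943 at 641 mg/kg, where leaving out 1 array changed the sign, and 0.812 at 64.1 mg/kg, the second with a limma adjusted p of 0.977. At 0.641 mg/kg Fabp4 stood at 0.669 of vehicle, where the 95% interval of the ratio of vehicle to dose, 0.857 to 2.60, leaves room for a change in either direction.

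Cd36 did not separate by dose. Its lowest, median and highest arrays were 5.78, 6.28 and 6.54 at 641 mg/kg, against 5.91, 6.10 and 6.52 in vehicle, a fold of 1.07. At 64.1 mg/kg they were 5.69, 5.91 and 6.16, a fold of 0.872 with a limma adjusted p of 0.945. The probe set shared with Cd36l1 stood at 1.04 of vehicle at 641 mg/kg and at 0.886 at 64.1 mg/kg, with a limma adjusted p of 0.927 at the second dose.

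Plin2 was measured by 2 probe sets whose means lay slightly below vehicle at every dose. The brighter one had its lowest, median and highest arrays at 11.38, 11.45 and 11.61 at 641 mg/kg, against 11.45, 11.59 and 11.95 in vehicle. All 6 arrays at 641 mg/kg lay below the vehicle mean, the groups overlapped, and the fold was 0.882. The dimmer one read 7.03, 7.18 and 7.26 at 641 mg/kg, against 7.12, 7.20 and 7.43 in vehicle, a fold of 0.938. The folds at 64.1 mg/kg were 0.936 and 0.888 for the brighter and the dimmer probe set, with limma adjusted p-values of 0.946 and 0.902. At 6.41, 0.641 and 0.06 mg/kg the folds were 0.967, 0.981 and 0.990 for the brighter probe set. They were 0.986, 0.976 and 0.987 for the dimmer one, and each limma adjusted p was at least 0.999.

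**Figure D3:**
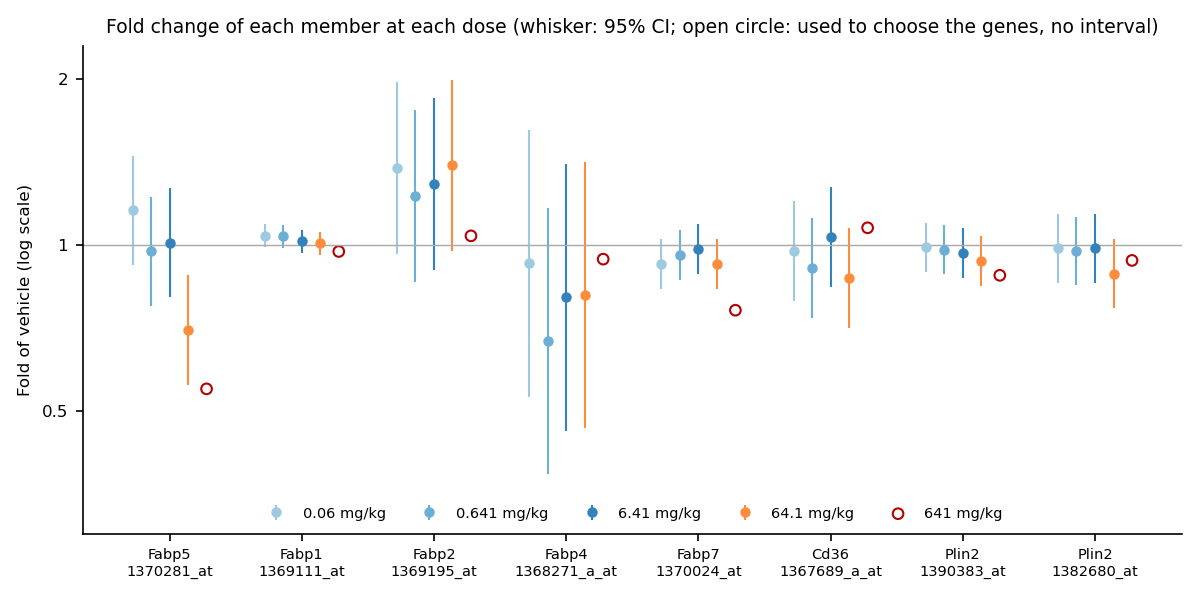
Fold of vehicle (y axis, log scale) for each of the 8 probe sets at each HBCD dose, with 95% confidence intervals from the limma fit for the 4 doses that did not choose the genes and an open circle for 641 mg/kg. Among the intervals drawn, that of Fabp5 at 64.1 mg/kg, around a fold of 0.702, is the one that does not reach 1.

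At 641 mg/kg, 2 of the 8 member probe sets, those of Fabp5 and Fabp7, passed the limma threshold of an adjusted p under 0.05, both lower; over all probe sets 1.65% passed, of which 1.13% of probe sets were higher and 0.512% lower. That comparison chose the genes, so nothing is read from the count. Limma called 0 of the 8 at 64.1 mg/kg, where 0.0419% of all probe sets were called and 1843 had an unadjusted p under 0.05. Fabp5 was the 1 member probe set with an unadjusted p under 0.05 there. Limma also called 0 members at 6.41, 0.641 and 0.06 mg/kg, where 0% of probe sets were called, 1282, 1477 and 1293 probe sets had an unadjusted p under 0.05 and no member did. For the slope from vehicle to 64.1 mg/kg limma called 0 members and 0.0483% of probe sets; 1623 probe sets and, among the members, Fabp5 had an unadjusted p under 0.05. The median log2 change over the 7 genes was -0.08 at 641 mg/kg and -0.11 at 64.1 mg/kg, beside -0.0073 and 0.0032 over all probe sets.

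Genes of the wider fatty acid pathway were read from lists, and at 641 mg/kg limma called 7 of their genes, with 0 called at any lower dose or on the slope. Limma called 1.65% of all probe sets at 641 mg/kg. The lists were chosen with earlier results of these data known. They hold only the brightest probe set of each gene, unlike that share, so nothing is read from the count beside it. The counts at an unadjusted p under 0.05 have another background. Over all probe sets, 11.4%, or 3549 of 31042, had such a p at 641 mg/kg. Of the 8 lists, 4 held 1 gene each at an unadjusted p under 0.05 at 64.1 mg/kg, where 5.94% of all probe sets had such a p. These were 1 of 11 other intracellular lipid binding proteins and 1 of 12 genes of triglyceride synthesis and export. The others were 1 of 13 genes of fatty acid oxidation and 1 of 10 of fatty acid synthesis. The remaining lists, of 13, 13, 8 and 11 measured genes, held 0. Other intracellular lipid binding proteins held 11 measured genes with 0 called by limma, 4 at an unadjusted p under 0.05 and a median log2 change of -0.02. The smallest p there was that of Rbp7, a retinol binding protein, at 3.24 ± 0.21 against 3.76 ± 0.16 in vehicle (fold 0.698, adjusted p = 0.0682). Lipid droplet coat and formation held 13 genes, 0 called, 3 at an unadjusted p under 0.05 and a median of -0.0083. Its smallest p belonged to Cideb, a droplet and lipoprotein assembly factor, at 9.87 ± 0.07 against 10.02 ± 0.04 in vehicle (fold 0.899, adjusted p = 0.145).

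Of 13 genes of fatty acid uptake and activation, 2 were called lower and the median was -0.07. Slc27a5, a liver bile acid and fatty acid ligase, averaged 11.83 ± 0.10 at 641 mg/kg against 12.18 ± 0.05 in vehicle, a fold of 0.787 (limma adjusted p = 0.00349). Lipc, hepatic lipase, averaged 11.48 ± 0.15 at 641 mg/kg against 11.68 ± 0.08 in vehicle, a fold of 0.868 (limma adjusted p = 0.0381). Triglyceride synthesis and export held 12 genes with 0 called, 1 at an unadjusted p under 0.05 and a median of 0.0048, and its smallest p was that of the acyltransferase gene Mogat2 (fold 1.12, adjusted p = 0.369). Among 8 lipolysis genes with a median of -0.03, Mgll rose 1.41-fold, at 9.05 ± 0.21 against 8.56 ± 0.21 in vehicle (limma adjusted p = 0.0282). Mgll encodes monoacylglycerol lipase, which completes the breakdown of triglyceride.

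The 11 lipid sensing transcription factors had 0 calls, 3 at an unadjusted p under 0.05 and a median of -0.02, with the smallest p for Ppard, which encodes PPARdelta (fold 0.848, adjusted p = 0.133). Among 13 genes of fatty acid oxidation and PPARalpha targets, with a median of -0.04, 1 fell. That was Cpt1a, the gate of fatty acid entry into mitochondria, at 9.75 ± 0.15 at 641 mg/kg against 10.33 ± 0.22 in vehicle, a fold of 0.673 (limma adjusted p = 6.01e-04), and at 64.1 mg/kg its fold was 0.827 (adjusted p = 0.666). Fatty acid synthesis, with 10 genes and a median of 0.06, held calls in both directions. Me1, malic enzyme, rose 1.52-fold (adjusted p = 0.0151), while Scd, the desaturase, stood at 0.256 of vehicle (adjusted p = 6.01e-04) and Elovl5, an elongase, at 0.862 (adjusted p = 0.00772). All 10 of these genes lay above their vehicle mean at 0.641 and at 0.06 mg/kg, and 8 did at 6.41 mg/kg. The medians were 0.19, 0.10 and 0.14 log2 units in that order. At an unadjusted p under 0.05 there were 5, 3 and 3 of the 10 genes, against 4.76%, 4.17% and 4.13% of all probe sets. Limma called 0 of them at each of these doses, and these comparisons share the same 6 vehicle arrays.

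**Figure D4:**
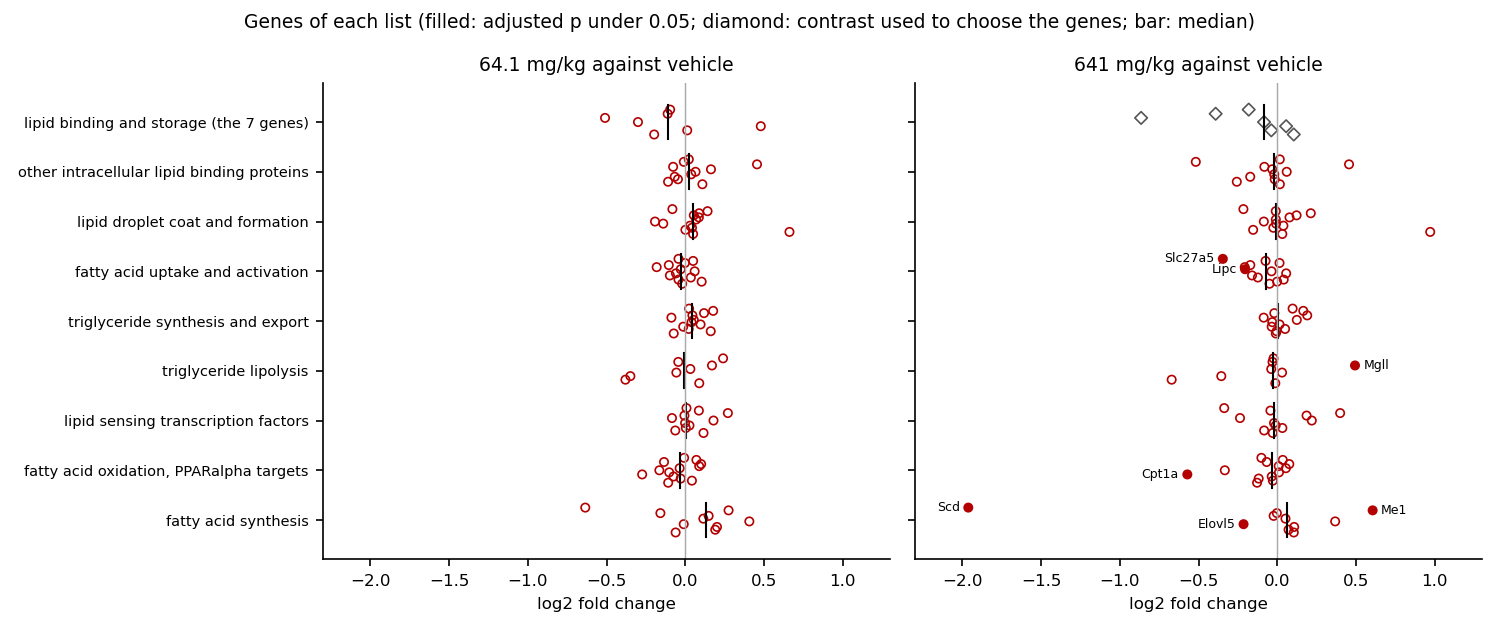
Log2 fold change against vehicle (x axis) of each measured gene of the 7 members and 8 pathway lists (y axis) at 64.1 mg/kg (left) and 641 mg/kg (right). Filled points have a limma adjusted p under 0.05, grey diamonds belong to the comparison that chose the 7 genes, and bars are list medians. No point is filled at 64.1 mg/kg, and 7 pathway genes are filled and named at 641 mg/kg.

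Markers of liver cell types differed from vehicle in places, and their part in the member values was not tested. The mean of 9 macrophage and Kupffer cell markers ranged from 7.91 to 8.72 at 64.1 mg/kg, against 8.65 to 8.85 in vehicle. There, 7 of 9 had an unadjusted p under 0.05, against 5.94% of all probe sets, and limma called 0. At every dose at least 8 of the 9 lay below vehicle. The vehicle mean of 8.75 ± 0.07 was the highest of the 6 groups and had the smallest SD. At 641 mg/kg the mean of these markers ranged from 8.54 to 8.85. The mean of 7 hepatocyte markers ranged from 12.61 to 12.75 at 641 mg/kg, against 12.84 to 12.97 in vehicle, with a median log2 change of -0.15. Of the 7, 5 had an unadjusted p under 0.05, against 11.4% of all probe sets. Limma called 1 of the 7, the urea cycle gene Ass1, at a fold of 0.710, while the log2 difference of Alb was 0.01.

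Other marker lists gave little. Limma called 0 of 7 adipocyte, 7 endothelial and 7 stellate cell and fibroblast markers at any dose, with medians of 0.05, -0.07 and -0.02 and 0, 2 and 1 genes at an unadjusted p under 0.05 at 641 mg/kg. Among 5 enterocyte markers it called 1 lower at 641 mg/kg, Apoa4, which liver also makes (fold 0.761, adjusted p = 0.0487), with a list median of -0.11. The adipocyte markers Adipoq, Lep, Plin1 and Slc2a4 and the enterocyte markers Fabp6 and Vil1 lay below the array median on all 36 arrays, while the adipocyte markers Cidec, Lipe and Cfd and the enterocyte markers Apoa4, Anpep and Alpi lay above it on all 36.

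The wide spread of Fabp4 within groups followed that of connective tissue markers. Across the deviations of 36 arrays from their group means, Fabp4 correlated with the mean of 7 stellate cell and fibroblast markers at Pearson's r = 0.892 and Spearman's rho = 0.906. Permutation of arrays within groups gave p = 1e-05 for both, the smallest that 100000 resamples can give, and 0.00042 after adjustment over 42 relations of the 7 genes with 6 marker lists. Without the 2 arrays farthest from the marker median, r was 0.883. Within groups r was 0.977 in vehicle and, at rising dose, 0.993, 0.508, 0.892, 0.936 and 0.860. By marker, r was 0.858 for the collagen gene Col3a1, 0.759 for Col1a1 and 0.748 for the matrix gene Dcn, but 0.450 for Reln, 0.443 for Lrat, 0.437 for Des and 0.201 for the pericyte receptor gene Pdgfrb.

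No other of the 42 relations passed after adjustment. The nearest was Cd36 with 7 endothelial markers, at r = 0.568 and rho = 0.499 (permutation p = 0.0027 for r, adjusted p = 0.0567), with single markers from -0.0076 for Vwf and 0.118 for Pecam1 to 0.598 for Fcgr2b and 0.621 for Lyve1. Cd36 with the macrophage markers and Fabp5 with the stellate markers had r = 0.482 and 0.426, both at an adjusted permutation p of 0.0993. For Fabp7 and the macrophage markers r was -0.03 (permutation p = 0.894). Among the members, as a description over the deviations of 36 arrays, r ran from -0.34 for Fabp1 with Fabp4 to 0.42 for Fabp1 with Fabp7. Fabp5 had r = -0.15 with Fabp1, 0.07 with Fabp7, 0.30 with Fabp4, -0.04 with Cd36 and 0.22 with Plin2.

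**Figure D5:**
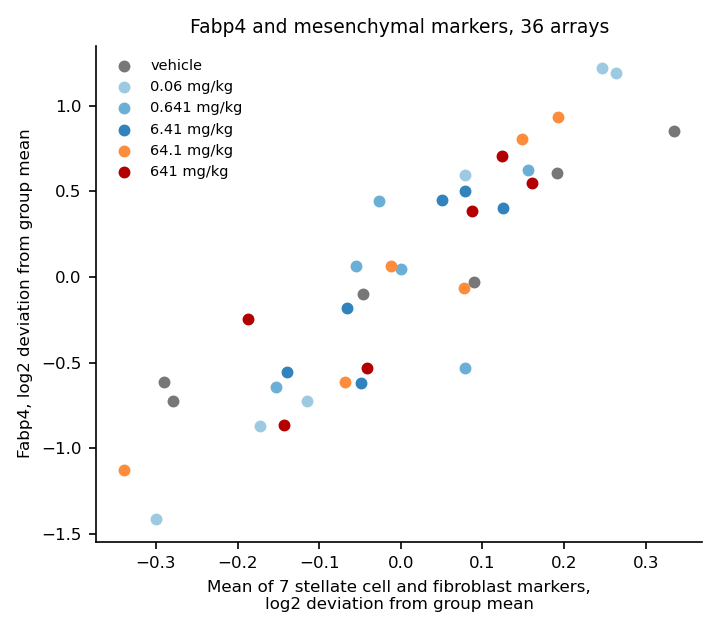
Fabp4 (y axis) against the mean of 7 stellate cell and fibroblast markers (x axis), both as log2 deviations from the group mean, for 36 arrays coloured by dose. Points of all 6 groups lie along 1 rising band, with r = 0.892 over all arrays and the loosest group at 0.508.

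The genes whose levels were most like that of Fabp5 were taken by Pearson's r over the 36 arrays, which share their normalization and include those of the comparison that chose Fabp5, so the values are a description. Of 14216 other genes, the highest were Lect2, a secreted liver protein, at 0.85, the semaphorin receptor gene Plxnb1 at 0.79, the costimulatory ligand gene Icoslg at 0.79, the cytochrome oxidase subunit gene Cox7c at 0.75 and Trnau1ap at 0.74. The lowest were Ugt2a1, a glucuronosyltransferase, at -0.81, the glutathione transferase gene Gsta4 at -0.79, and Slco1a1, Selenbp1 and Sccpdh at -0.78. Over deviations from group means, which remove the dose differences, the highest were Ran at 0.76, Mrpl12 at 0.75, Abcd2 at 0.73 and Cdh3 and Lect2 at 0.72. Of these, Abcd2 and Cdh3 were dim, with mean levels of 4.87 and 3.97 beside array medians of 4.83 to 4.90, and were not separated from background. Lect2 is in both lists of 5. The lowest over deviations were Rida at -0.71, Adtrp and Aldh2 at -0.69 and Mmp24 and Exph5 at -0.67.

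For Fabp1 the highest over deviations were Car3 at 0.69, Sdsl at 0.67, Igfals at 0.65 and Derl1 and Il17f at 0.63. Il17f was dim, with a mean level of 2.39, where the lowest value on any array was 1.53. At 641 mg/kg Lect2 stood at 0.886 of vehicle, a smaller difference than the 1.82-fold of Fabp5, and Ugt2a1 stood at 1.97. At 64.1 mg/kg the fold of Ugt2a1 was 1.40. Both genes were picked by their r with Fabp5 over arrays that include these dose groups and vehicle. Their folds are therefore a description, given with no p-value.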

How the data were processed

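Liver RNA of 36 samples was hybridised to 1-colour rat arrays, and the authors deposited log2 values per probe set, made with RMA and affy per the submitters' processing notes. Versions and settings are not given in the sources used here. No further normalization was applied, and precision is set by how many arrays a group holds. The 57 control probe sets were left out of 31099. Of 31042 tested, 20826 had 1 gene symbol, 436 several and 9780 none. Symbols were updated through a GRCr8 gene table.

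Limma 3.58.1 in R 4.3.3 fitted group as 1 factor over all arrays, in place of R/maanova, which the design text names at a false discovery rate of 5%. Each dose was compared with vehicle, and a slope over vehicle to 64.1 mg/kg was taken per dose step. Benjamini-Hochberg adjustment ran over all probe sets, with calls under 0.05. A gene in a list was represented by its brightest probe set. An adjusted p with no test named is limma's.

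The members and lists were chosen with earlier results of these data known. The text names every member probe set, called genes of each pathway list (up to 3 each way, or the gene with the smallest p at 641 mg/kg where none was called), and the 5 genes most and least like Fabp5, or most like Fabp1. Other genes were named after their values were seen. Cross-hybridisation of Fabp5 with its annotated pseudogenes was not tested. Listed genes without a probe set of 1 symbol were not analysed here. On simulated data, the limma code was tested. Alternatives covered a replicate block, normalization, a filter on dim probe sets, variance models, array weights, the probe sets per gene, the samples fitted and each replicate left out.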

Additional observations from a re-analysis of the deposited data

Results flagged for a closer look

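Of 54 groups of 6 arrays examined, 5 held 1 array far from its group relative to the group's range, where chance alone gives about 1 in 20 groups. Fabp1 at 641 mg/kg had replicate 2 lowest at 13.51, with the nearest array at 13.60. Fabp7 at 641 mg/kg had the same replicate lowest at 11.06, with the nearest at 11.32. Fabp7 at 6.41 mg/kg had replicate 2 highest at 11.97, with the nearest at 11.70. Cd36 in vehicle had replicate 1 highest at 6.52, with the nearest at 6.11. The Fabp5 minus Fabp1 difference at 6.41 mg/kg had replicate 4 highest at -3.49, with the nearest at -3.96.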

How the results depend on the processing

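The number of members called stayed at 0 for the slope and at 0.06, 0.641 and 6.41 mg/kg under every alternative run. Fabp5 at 64.1 mg/kg stayed lower under all 23 alternatives, with adjusted p from 0.0336 to 1.00. It was called, as 1 of the 8 member probe sets, with the 3 lower doses in place of vehicle fitted on those 24 arrays alone, and in no other. Same-numbered arrays of a dose and vehicle were not paired: their deviations correlated at -0.252 to 0.220, and 8 of 30 pairs exceeded 0.1. With the replicate block the Fabp5 minus Fabp1 value at 64.1 mg/kg was -0.52, with a sign-flip p of 0.03125, the smallest that exact test allows, and an adjusted p of 0.125; the block changed no other call. Leaving out each replicate in turn, that value ran from -0.595 to -0.427 and was uncalled in 9 of 12 cases; at 6.41 mg/kg it ran from -0.100 to 0.0884 and at 0.641 mg/kg from -0.163 to 0.00510.

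Log2 differences near 0 changed sign when 1 replicate was left out. These ran for Fabp5 from -0.0775 to 0.103 at 6.41 mg/kg and from -0.116 to 0.0496 at 0.641 mg/kg; for Fabp7 from -0.0816 to 0.0150 at 6.41 mg/kg; for Cd36 from -0.0184 to 0.128 at 6.41 mg/kg and from -0.106 to 0.0452 at 0.06 mg/kg; for Fabp4 from -0.229 to 0.0888 at 641 mg/kg and from -0.355 to 0.172 at 0.06 mg/kg; and for Fabp2 from -0.0551 to 0.276 at 641 mg/kg. The brighter Plin2 probe set ran from -0.0893 to 0.0121 at 6.41, from -0.0677 to 0.0337 at 0.641 and from -0.0545 to 0.0470 at 0.06 mg/kg. The dimmer Plin2 probe set ran from -0.0907 to 0.0511, from -0.0667 to 0.000936 and from -0.0625 to 0.0244 at the same doses. With array weights, Fabp5 at 6.41 mg/kg was -0.00427 and the brighter Plin2 probe set at 0.06 mg/kg was 0.00307. Without 64.1 mg/kg replicates 2, 3 and 4, Fabp4 at that dose was 0.257. With the 3 lower doses in place of vehicle, fitted on all 36 or those 24 arrays and chosen after seeing the data, Fabp4 at 64.1 mg/kg was 0.0342 and Fabp1 was -0.0311. The cause of these changes was not tested. A filter on a group mean of at least 6 left no Fabp2 or Fabp4 value. No detection calls were used, so dim probe sets such as these were not separated from background.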

Other observations

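Cidea, a lipid droplet gene of brown fat known to appear in fatty liver of mice, was named after its values were seen. It averaged 7.22 ± 0.52 at 641 mg/kg and 6.91 ± 0.63 at 64.1 mg/kg, against 6.25 ± 0.19 in vehicle (n = 6 arrays each). The folds were 1.96 at 641 mg/kg (limma adjusted p = 0.161) and 1.58 at 64.1 mg/kg (limma adjusted p = 0.843), so neither passed the test.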
